A study of Rattus norvegicus with 12 samples.

Results

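The regions described are 100 bp windows of the rat autosomes that held almost no sequencing reads in all pools of one lineage and a clear number of reads in the other. A window was taken when its counts, summed over the 6 pools of a lineage, came to 3 or fewer in one lineage and to 25 or more in the other. Of 26187330 autosomal windows, 2242 met these limits. In 56 windows the vinclozolin lineage was nearly without reads, and in 2186 windows the control lineage was. The windows were thus selected on the lineage counts themselves, so every difference between the lineages in them is a description and carries no test.

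The data are from methylated DNA immunoprecipitation followed by sequencing (MeDIP-Seq) of ventral prostate cells from F3 generation males aged 19 to 21 days. The rats were of the outbred strain Hsd:Sprague Dawley SD. Gestating F0 generation females had been injected with vinclozolin, a fungicide with anti-androgenic action, at 100 mg/kg/day on days 8 to 14 of gestation, and the control lineage descended from females injected with the vehicle dimethyl sulfoxide. No F3 generation animal of either lineage was itself exposed. Each lineage had 3 pools of epithelial and 3 pools of stromal cells. Each pool combined several rats, so that a count of a pool is a mixture over animals. By the study's methods, fewer rats in all went into the control lineage pools than into the vinclozolin lineage pools. Epithelial and stromal cells were separated by settling and centrifugation, and that separation was not checked here. A pool of the control lineage had a total of 57135700 to 87262275 counts, and a pool of the vinclozolin lineage 71843106 to 112304623. Over the autosomes the vinclozolin lineage held 1.35 times the counts of the control lineage.

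In MeDIP an antibody against 5-methylcytosine pulls down sheared, single-stranded DNA, and read number over a region rises with the number of methylated CpG sites on its fragments. A region without reads can therefore be an unmethylated region, a region with hardly any CpG sites, or a stretch of the reference genome that the animals do not carry or to which reads cannot be placed. DNA that had not been immunoprecipitated was not analysed here, so absence of methylation and absence of the sequence from a pool cannot be told apart. Most CpG sites of a mammalian genome outside CpG islands are methylated in somatic cells, so that reads in such an experiment are spread over much of the genome. Windows of 100 bp are shorter than the sheared fragments, so adjoining windows share fragments and are not independent of each other.

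Windows nearly without reads in the vinclozolin lineage were few, and their counts in the lineage with reads were higher than those of the opposite direction. The counts are as deposited, and the vinclozolin lineage had more of them. With each pool scaled to the mean total the limits gave 125 windows low in the vinclozolin and 209 low in the control lineage, and with no count allowed in the low lineage 44 and 9, which turns the order of the directions. The 56 windows were 0.0012% of the 4650125 windows with 25 or more counts in the control lineage. Their control lineage sums ran from 25 to 90, with a median of 35.5, and 22 of them (39.3%) reached 40 or more. In 31 windows (55.4%) not a single count was found in any of the 6 vinclozolin lineage pools. The 2186 windows of the opposite direction were 0.0343% of the 6372370 windows with 25 or more counts in the vinclozolin lineage. Their vinclozolin lineage sums ran from 25 to 64 with a median of 27, and 1857 of them (84.9%) held 30 or fewer. Only 27 (1.24%) had no count at all in the control lineage, and 1458 (66.7%) stood at the limit of 3 counts.

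Windows just outside the limits were counted as well. Among windows with 25 or more counts in the control lineage, 9 had a vinclozolin lineage sum of 3 and 16 a sum of 4. In the opposite direction, 1458 windows had a control lineage sum of 3 and 3157 a sum of 4. At a sum of 24 in the lineage with reads, 10 windows lay just below the limit against 4 at a sum of 25 in the direction low in vinclozolin, and 828 lay below it against 632 at 25 in the direction low in control. The number of windows low in the control lineage rose without a break from a sum of 0 upward. The number low in the vinclozolin lineage fell from 31 at a sum of 0 to 8 at a sum of 1, and rose again above 3. These 31 windows are not 31 separate places. Of them, 6 adjoined on chromosome 2, 4 on chromosome 6, 3 on chromosome 8, 2 on chromosome 12 and 2 at chr1:5726401-5726600. Further windows without a count lay in 2 clusters on chromosome 3. The cluster at chr3:23694101-23694900 had 7 member windows with 3 vinclozolin lineage counts in all. That at chr3:168952401-168952800 had 4 member windows with 1 such count. Adjoining windows share fragments. At 40 or more counts in the lineage with reads both directions held 22 windows.

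**Figure D1:**
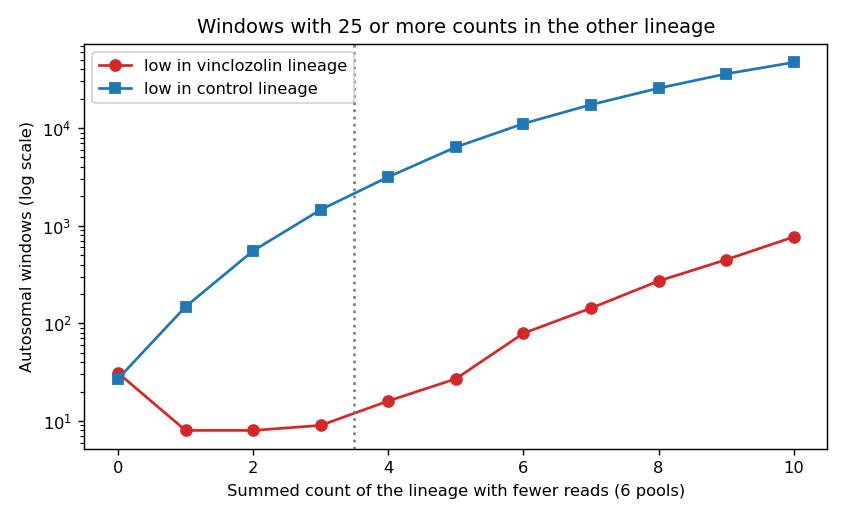
Number of autosomal windows (log axis) with 25 or more counts in one lineage, by the summed count of the other lineage over its 6 pools; the dotted line marks the limit of 3 counts. Windows low in the vinclozolin lineage start at 31 without any count and fall to 8 at a sum of 1, whereas windows low in the control lineage rise from 27 to 1458 at a sum of 3. Several of the 31 windows adjoin each other and share fragments.

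The windows low in the vinclozolin lineage lay together. Joined where they adjoined, the 56 windows formed 33 runs, and 10 runs of 2 or more windows held 33 of them (58.9%). The longest run had 6 windows. Joined where their starts lay at most 1000 bp apart, they formed 28 clusters, of which 11 had more than 1 window and held 39 windows (69.6%). The 2186 windows low in the control lineage were mostly alone. They formed 2140 runs, 40 of them with 2 or more windows, which held 86 windows (3.93%), and 43 of their 2133 clusters had more than 1 window. No run or cluster of this direction had more than 4 windows.

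The surroundings of the windows differed between the directions. The limits fixed the sums in the windows themselves. Windows beside a member can be members too and can share fragments with it, so the limits fixed the values at 300 bp in part as well. Around the 56 windows low in the vinclozolin lineage, the mean sum over the 6 control lineage pools was 40.6 in the window itself, 25.6 at 300 bp to the left and 22.9 at 300 bp to the right. The vinclozolin lineage means at these places were 0.911, 8.93 and 6.93. The medians over the 56 windows were 35.5, 19 and 14.5 in the control and 0, 2.5 and 0 in the vinclozolin lineage. In 24 of the 56 windows (42.9%) the vinclozolin lineage had 10 or more counts in the windows at 300 bp to the left and right together, with a median of 6.5. Further out the lineages approached each other. At 1000 bp to the left the epithelial pools had 2.86 ± 0.884 counts per 100000000 in the control and 2.52 ± 0.307 in the vinclozolin lineage, and the stromal pools 3.24 ± 0.0192 and 2.17 ± 0.484 (SD, n = 3 each). At 1000 bp to the right the control lineage mean was also the higher in both cell types.

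Around the 2186 windows low in the control lineage, both lineages had reads on either side. The mean control lineage sum was 2.57 in the window, 30.0 at 300 bp to the left and 30.1 at 300 bp to the right. The mean vinclozolin lineage sum was 27.7 in the window and 43.8 and 43.9 at the same distances. The means of both lineages thus dipped between the flanks, more deeply in the control lineage. The medians differed from this, at 12, 3 and 12 in the control lineage and at 20, 27 and 21 in the vinclozolin lineage for the left flank, the window and the right flank. The limits fixed the sums in the window itself as low in the control and high in the vinclozolin lineage, so nothing is drawn from the window against its flanks.

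**Figure D2:**
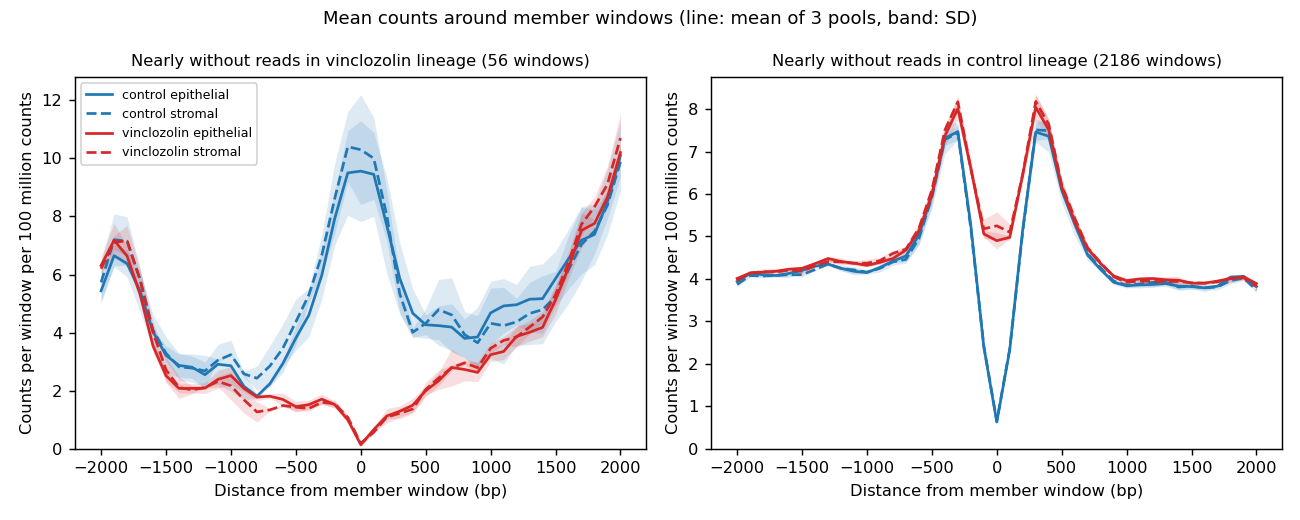
Mean counts per 100 bp window, per 100000000 counts of a pool, against the distance in bp from the member window; lines are means of 3 pools and bands their SD. The limits fixed the values at distance 0 in both panels, and in part those beside it, where members lie close together. On the left the control lineage mean is also above the vinclozolin lineage mean at 300 bp on either side, and on the right the means of both lineages have flanks at 300 bp with a dip between them, closer to 0 in the control lineage; the median vinclozolin lineage sums are 27 in the window and 20 and 21 at the flanks.

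The surroundings were also measured window by window. The count of the lineage nearly without reads was divided by that of the other lineage over the 1100 bp centred on each window, after scaling by the lineage totals. The median ratio was 0.115 (quartiles 0.0349 and 0.27) for the windows low in the vinclozolin lineage and 0.749 (0.6 and 0.874) for those low in the control lineage. The ratio was under 0.25 for 41 of the 56 windows (73.2%) and for 40 of the 2186 (1.83%). It was over 0.5 for 5 (8.93%) and 1871 (85.6%). The 1100 bp include the window itself and any member beside it, which the limits fixed as low in one lineage and high in the other. A ratio under 0.25 alone therefore does not show that reads were lacking beyond the window. The value of 0.25 was chosen after the ratios had been seen.

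**Figure D3:**
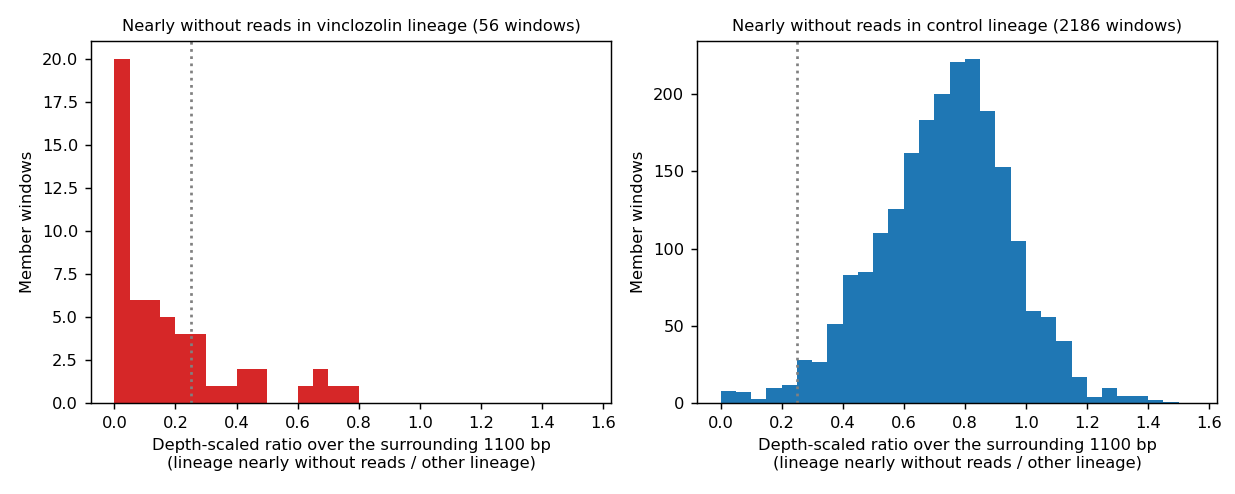
Number of member windows by the ratio of summed counts, lineage nearly without reads over other lineage, in the surrounding 1100 bp, scaled by the lineage totals; the dotted line marks 0.25. Of the 56 windows low in the vinclozolin lineage 41 lie below it, and of the 2186 low in the control lineage 40 do, while 1871 lie above 0.5.

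A property of all libraries differed by lineage as well. For each pool the mean product of the counts of windows 200 bp apart was divided by that of windows 100 bp apart over all autosomes, a ratio that is higher where counts carry further along the genome. In epithelial cells it was 0.766 ± 0.00551 in control and 0.821 ± 0.0155 in vinclozolin lineage pools (SD, n = 3 each). In stromal cells it was 0.768 ± 0.00971 and 0.829 ± 0.02 (SD, n = 3 each). The lineages did not overlap in either cell type, and the two-sided exact permutation test gave p = 0.1 in each, the smallest that 3 against 3 pools allow. The ratio was higher in each vinclozolin lineage pool than in any control lineage pool, and its part in the 2186 windows was not tested.

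**Figure D4:**
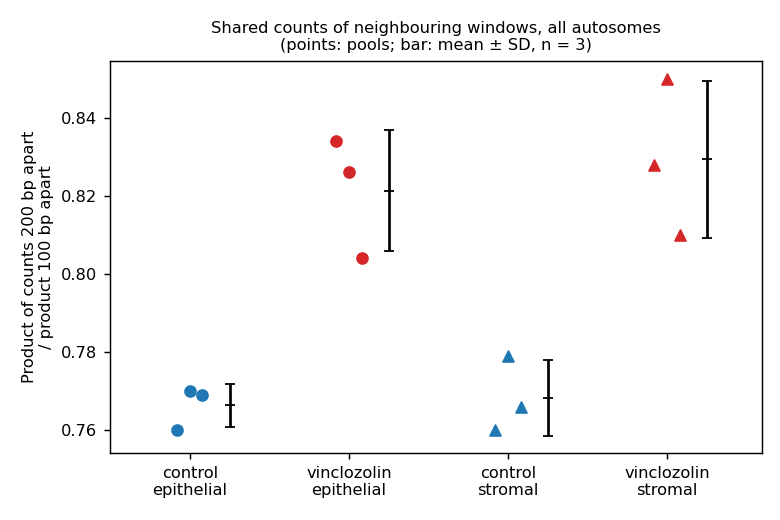
Ratio of the mean product of counts of windows 200 bp apart to that of windows 100 bp apart, over all autosomes, for each of the 12 pools, with mean ± SD (n = 3) beside them; the vertical axis does not start at 0. All control lineage pools lie at or below 0.779 and all vinclozolin lineage pools at or above 0.804.

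The limits were also applied to each cell type. When each cell type alone was asked for 1 count or fewer in one lineage and 13 or more in the other, 28 of the 56 windows (50%) met this in both, 18 in epithelial cells alone, 8 in stromal cells alone and 2 in neither. Of the 2186 windows low in the control lineage, 110 (5.03%) met it in both, 473 in epithelial cells alone, 923 in stromal cells alone and 680 in neither. The lowest pool of the lineage with reads lay above the highest pool of the other lineage in 34 of the 56 windows. In the direction low in control it did so in 992 of the 2186 windows. Both numbers compare all 6 pools of one lineage with all 6 of the other, across cell types. Within epithelial cells the pools were apart in this way in 48 and 1572 windows, and within stromal cells in 40 and 1775. The sums over both cell types chose the windows and the counts are not scaled for depth, so nothing is drawn from the split between cell types. Autosomal totals of vinclozolin lineage pools 1 to 3 were 80006339, 105694334 and 72194208 in epithelial and 106472452, 108544133 and 69470444 in stromal cells. Those of the control lineage were 58630852, 84527741 and 69645284 in epithelial and 55327618, 62343882 and 71661352 in stromal cells.

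Within the lineage that has the reads, epithelial and stromal cells were compared. The choice of windows used the sum over both cell types and not their difference, but a window near the limit of 25 counts can have met it through the cell type in which it is high. The test was edgeR's quasi-likelihood test, fitted on all autosomal windows with 25 or more counts over the 6 pools of that lineage, with Benjamini-Hochberg adjustment over all of them and a limit of 0.05. Among the 56 windows low in the vinclozolin lineage, 0 passed between control lineage epithelial and stromal cells, where 0.0031% of all windows tested passed, 0.00086% with higher counts in epithelial and 0.00224% with higher counts in stromal cells. With the pool number as a block 0 of the 56 passed, and 0.00127% of all windows. At an unadjusted p under 0.05 there were 3 (5.36%, against 7.34% of all windows tested). All 3 were higher in stromal cells, a direction not counted over all windows, and nothing is drawn from it. DESeq2 called 0 and gave 0 at that unadjusted limit. The log2 difference of epithelial over stromal cells had a median of 0.01 over the 56 windows and 0.01 over all windows tested, with a median standard error of 0.52 for a single window, so that only large differences could be seen at this depth.

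Among the 2186 windows low in the control lineage, 2 (0.0915%) passed between vinclozolin lineage epithelial and stromal cells, where 0.0745% of all windows tested passed (0.0358% higher in epithelial and 0.0387% higher in stromal cells). At an unadjusted p under 0.05 there were 181, 8.28% of the windows against 9.05% of all windows tested. Of the 181, 49 were higher in epithelial and 132 in stromal cells. This split was not counted over all windows, and windows near the limit can have met it through 1 cell type. Nothing is drawn from the split. The median log2 difference of epithelial over stromal cells was -0.09 over the 2186 windows and 0.00438 over all windows tested. The 2 windows are named because of this call. At chr1:52929701-52929800 the vinclozolin lineage counts in pools 1 to 3 were 0, 1 and 0 in epithelial and 11, 6 and 7 in stromal cells. At chr1:193383001-193383100 they were 0, 0 and 1 in epithelial and 8, 9 and 7 in stromal cells. Both had a vinclozolin lineage sum of exactly 25, of which 24 were stromal counts, so they met the limit only through the group in which they were high, and nothing is drawn from their calls. With the pool number as a block 2 of the 2186 passed, and 0.0391% of all windows. With DESeq2, with windows of 10 or more counts or without vinclozolin lineage epithelial pool 2, 0 of the 2186 passed, and without epithelial pool 3, 1 of them passed.

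The largest cluster low in the vinclozolin lineage lay at chr3:23694101-23694900 (coordinates of Rnor_6.0 throughout) and had 7 member windows. Over these windows control lineage pools 1 to 3 held 57, 107 and 63 counts in epithelial cells and 43, 59 and 85 in stromal cells. The vinclozolin lineage pools held 1, 0 and 0 in epithelial and 0, 2 and 0 in stromal cells. All control lineage pools were high and none overlapped with the vinclozolin lineage. Its window at 23694301-23694400 had the highest sum of the 56, 90 against 0. The cluster together with the adjoining windows of 3 or fewer vinclozolin lineage counts each made a stretch of 3600 bp, from 23691901 to 23695500, with 570 control and 25 vinclozolin lineage counts.

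A second cluster, at chr2:115810201-115810800, had 6 windows and not a single vinclozolin lineage count in any pool. The control lineage pools 1 to 3 held 18, 86 and 36 counts in epithelial and 16, 85 and 77 in stromal cells. Scaled by the lineage totals, the control lineage count was 143 times a floor of 3 counts over the vinclozolin lineage. The limits chose the windows on these sums and a read can count in several windows, so this value is no bound on a difference between the lineages. Pool 1 had the fewest counts in both cell types. Of its windows, 2 were among the 3 with an unadjusted p under 0.05 between control lineage cell types. Their log2 differences were -1.11 ± 0.42 (SE) at 115810201 and -0.86 ± 0.36 (SE) at 115810301. The adjusted p-values were 0.503 and 0.578 by edgeR's quasi-likelihood test. This fit had no block for the pool number, so it takes no account of any pairing of the pools. The study's annotation, which names genes in or near its regions, gives U1 for a window of this cluster, the small nuclear RNA of the spliceosome that recognises the start of introns. Whether the window lies in a U1 sequence was not examined.

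Other clusters were without any count in the vinclozolin lineage as well. At chr6:21698601-21699000, control lineage pools 1 to 3 held 22, 49 and 11 counts in epithelial and 3, 21 and 32 in stromal cells. The control lineage count was 62 times the same floor, with the same limit to its meaning. At chr8:125627601-125627900 control lineage pools held 8, 26 and 49 counts in epithelial and 7, 33 and 14 in stromal cells, 61.6 times the floor. At both places the highest pool of one cell type was not that of the other. At chr12:22541801-22542000, 2 windows held 19, 18 and 14 counts in epithelial and 23, 24 and 17 in stromal cells, 51.7 times the floor. Each pool number held between 27% and 36.5% of its counts, the most even of the 10 named clusters low in the vinclozolin lineage. Among those 10 it also had the highest ratio of the lineages over the surrounding 1100 bp, 0.464, and the shortest stretch, the 200 bp of the cluster itself. The study's annotation names AABR07035791.1 in or near it, a gene model known only by its sequence contig.

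In further clusters a few vinclozolin lineage counts remained. At chr4:173488501-173489000 control lineage pools 1 to 3 held 16, 36 and 21 counts in epithelial and 15, 23 and 28 in stromal cells, against 4 counts over all vinclozolin lineage pools. At chr1:5738201-5738500 they held 14, 29 and 17 in epithelial and 10, 24 and 25 in stromal cells, and the 4 vinclozolin lineage counts were all in pool 1, 3 in epithelial and 1 in stromal cells. At chr2:244507901-244508100 they held 7, 16 and 3 in epithelial and 8, 12 and 9 in stromal cells, and all 4 vinclozolin lineage counts came from epithelial pool 1. In each of these clusters every control lineage pool had reads. The study's annotation names SNORA17 in or near chr1:5738201-5738500, a small nucleolar RNA of the class that guides pseudouridylation.

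At other clusters the counts of the control lineage were unequal over its pools. Of the 17 clusters low in the vinclozolin lineage with a median ratio under 0.25 over the surrounding 1100 bp, the highest pool number was the same in both cell types in 9. At chr5:77669001-77669800 pool 1 held 48 counts in epithelial and 55 in stromal cells, 88% of the cluster's control lineage counts. Pools 2 and 3 held 4 and 3 in epithelial and 6 and 1 in stromal cells, and the vinclozolin lineage pools between 0 and 2. Here 1 pool number stood apart from the other 5 more than the lineages did. At chr3:168952401-168952800 pool 3 held 33 and 57 counts, 70.3% of the control lineage counts, against 7 and 15 in epithelial and 4 and 12 in stromal pools 1 and 2. The vinclozolin lineage had 1 count there.

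**Figure D5:**
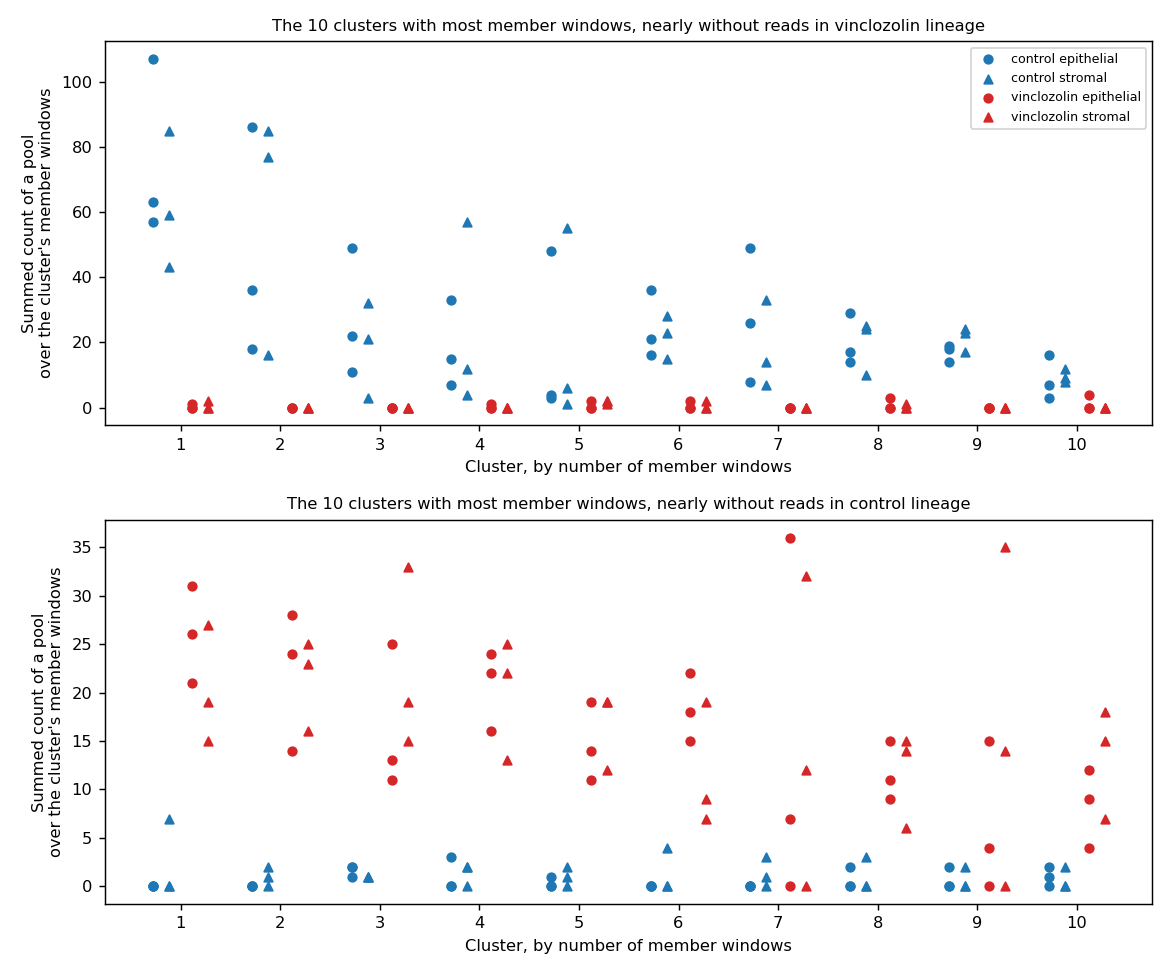
Summed count of each pool over the member windows of the 10 clusters with the most windows in each direction (top, low in vinclozolin; bottom, low in control); blue is control, red is vinclozolin lineage, circles are epithelial and triangles stromal pools. In the top panel cluster 5 is carried by 1 control lineage pool number, and in the bottom panel clusters 7 and 9 have vinclozolin lineage pools at 0 in both cell types.

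The order of the control lineage pools was compared between the cell types over all 56 windows. The pool number with the highest scaled count was the same in epithelial and stromal cells in 24 windows (42.9%), against 32.8% of all windows with 25 or more control lineage counts. In 9 windows (16.1%) a control lineage pool number had 1 count or none over both cell types, against 0.0936% of all such windows, whose median sum of 43 was above the 35.5 of the members. Pool 2 was the highest in 26 of the 56 windows (46.4%), against 33.2% of all such windows. Deviations of epithelial and stromal pools from their group means correlated between 0.344 and 0.708 for pools of the same number and between -0.686 and 0.353 for pools of other numbers over these 56 windows. Over all 4650125 windows the same-number values lay between -0.0117 and -0.00308, and the other-number values between -0.0012 and 0.012. Same-numbered epithelial and stromal pools are taken here to be from the same rats, which the labels do not state. Windows of a cluster share fragments, and the 11 clusters with more than 1 window weigh most in these values.

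The windows low in the control lineage were closer to the background in this respect. The highest pool number was the same in both cell types in 764 of 2186 windows (34.9%), against 33% of all windows with 25 or more vinclozolin lineage counts. A pool number with 1 count or none was found in 22 windows (1.01%), against 0.104% of all such windows, whose median sum was 46 against 27. Same-number correlations over the 2186 windows lay between 0.00194 and 0.0497.

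The ratio over the surroundings was also low in a small number of clusters low in the control lineage. A median ratio under 0.25 over the surrounding 1100 bp was found in 23 clusters low in the control lineage, with 40 windows, and in 17 clusters low in the vinclozolin lineage, with 44 windows. The stretches around these clusters, made as above, had a median length of 1300 bp in the direction low in vinclozolin and 1800 bp in the direction low in control, with 100 bp as the shortest in both and 4100 and 11200 bp as the longest. Around the remaining clusters the medians were 100 and 200 bp. The ratio and the stretches both rest on few counts in the low lineage, so this difference in length follows in part from how the clusters were divided. A stretch asks for no reads in the other lineage, and that of 6300 bp from chr2:194459901 held 94 vinclozolin lineage counts. Of the 17 and 23 clusters, 10 and 11 had more than 1 window. Some lay near each other, since 7 of the 17 and 6 of the 23 had another within 25 kb, a distance set after the positions had been seen.

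Of the clusters low in the control lineage, chr5:4580101-4580500 had 4 windows. Vinclozolin lineage pools 1 to 3 held 26, 31 and 21 counts in epithelial and 27, 15 and 19 in stromal cells. The control lineage held 7 counts, all in stromal pool 1. At chr5:1946201-1946700, also with 4 windows, the vinclozolin lineage held 24, 28 and 14 in epithelial and 23, 25 and 16 in stromal cells against 3 control lineage counts. At chr2:194469701-194470000 it held 18, 22 and 15 in epithelial and 19, 9 and 7 in stromal cells against 4 control lineage counts, all in stromal pool 1. In all 3 clusters every vinclozolin lineage pool had reads, and the ratio over 1100 bp lay between 0.0515 and 0.0695.

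The longest stretch among these 17 and 23 clusters ran over 11200 bp at chr6:123442101-123453300 and held 2 of the 10 clusters with the most windows. Vinclozolin lineage pools 1 to 3 held 2, 183 and 60 counts over it in epithelial and 3, 191 and 77 in stromal cells. The control lineage pools held 2, 3 and 0 in epithelial and 5, 0 and 1 in stromal cells. Vinclozolin lineage pool 1 was as low as the control lineage in both cell types, so that the stretch separated 2 pool numbers from the other 4 rather than the lineages. At chr3:60962101-60962700 the reverse was seen, since control lineage pool 1 was not without reads. Over a stretch of 1900 bp from 60960801 it held 25 counts in epithelial and 15 in stromal cells, where control lineage pools 2 and 3 had 0, and vinclozolin lineage pools had 50, 66 and 57 in epithelial and 76, 73 and 30 in stromal cells.

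The remaining clusters of this direction among the 10 had higher ratios over the surrounding 1100 bp. At chr8:43148801-43150900, 4 separate windows held 116 vinclozolin and 8 control lineage counts, with a ratio over 1100 bp of 0.531. Those at chr13:19643701-19644000, chr12:48023001-48023400 and chr5:121121101-121121300 had ratios of 0.391, 0.412 and 0.381. The window at chr13:19643701-19643800 had the highest sum of the 2186, with 9, 6 and 13 counts in vinclozolin lineage epithelial and 16, 10 and 10 in stromal cells against 0, 1 and 0 and 0, 1 and 1 in the control lineage. The next highest, at chr17:81610501-81610600, held 8, 9 and 7 in epithelial and 11, 11 and 11 in stromal cells, and its ratio over 1100 bp was 0.764. The third, at chr10:58296001-58296100, was again a matter of a single pool number. Vinclozolin lineage pool 1 held 15 and 38 counts there, pool 2 held 1 and 1, and pool 3 and all control lineage pools held 0.

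The 6 pool numbers, each with its epithelial and stromal pool, can be put into 2 sets of 3 in 9 ways other than by lineage, and the limits were applied to those sets for description. With the counts as deposited, between 6 and 703 windows per direction met them, against 56 and 2186 for the lineages. The 2 highest numbers, 594 and 703, came from the sets with the lowest totals, 402494745 and 396929758 counts, as the windows low in the set of fewer counts. After scaling of each pool to the mean total, the other sets gave between 11 and 34 windows per direction and between 35 and 65 in both directions together, and the lineages gave 125 low in the vinclozolin and 209 low in the control lineage. Windows with no count at all in one set numbered between 0 and 3 for the other sets with counts as deposited, against 31 and 27 for the lineages. After scaling they numbered between 0 and 4, against 44 and 9.

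The windows were spread over the genome. Those low in the vinclozolin lineage lay on 14 of the 20 autosomes, with the most, 11, on chromosome 3, and none on chromosomes 7, 9, 10, 13, 16 and 17. Those low in the control lineage lay on all 20, from 56.9 per 1000000 windows on chromosome 20 to 104 on chromosome 12. In the outer 2 Mb of the chromosomes lay 1 of the 56 (1.79%) and 71 of the 2186 windows (3.25%), against 3.05% of all autosomal windows. The part of chromosome 12 from 45 Mb onward held 0 of the 56 and 14 of the 2186 windows (0.64%), against 0.295% of all windows. Exons, promoters and genes were not assigned by position, because the annotation at hand was of another assembly than the files.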

How the data were processed

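The authors checked reads with FastQC, trimmed them with Trimmomatic, mapped the 50 bp paired-end reads to Rnor_6.0 with Bowtie2 at default options, sorted them with SAMtools and deposited counts per 100 bp window and pool, made with the MEDIPS R package. Versions and the handling of duplicate reads are not given in the sources used here. The counts are not normalized and end at 300, and a read over more than 1 window counts in each, so totals are not read numbers. Library-scaled values, group means, fold changes and p-values in the same tables were not used.

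Counts were summed per lineage in Python 3.11.15. Runs join adjoining windows, and clusters join windows with starts at most 1000 bp apart. In each direction the text names the 10 clusters with the most windows, ties by the summed count of the lineage with reads, and the 3 windows of the highest sum. Members and lists were chosen with earlier results of these data known. Exons and gene groups were not counted and no sequence is shown, because no genome sequence or full gene annotation of Rnor_6.0 was at hand. The gene names given are those of the study's own list of regions. Products of neighbouring counts were taken with counts above 40 set to 40.

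Epithelial and stromal pools were compared with edgeR 4.0.16 in R 4.3.3 (glmQLFit, TMM factors, common dispersion from a sample of 400000 windows). The fit was also run on simulated counts. Their dispersion was set above that of the data (0.0118 in the control and 0.00143 in the vinclozolin lineage). They held no effect shared by pools of the same number, so the run does not show how the test behaves with such an effect. By the study's methods each group of rats gave both an epithelial and a stromal sample. That same-numbered pools of a lineage come from the same group is assumed here, since the labels do not state it. Deviations of same-numbered pools from their group means had correlations of -0.0117 to -0.00308 (control lineage) and -0.0235 to 5e-05 (vinclozolin lineage) over all tested windows. For pools of other numbers they were -0.0012 to 0.012 and -0.018 to 0.0223. Alternatives were the pool number as a block, library sizes alone, median-of-ratios size factors, other count limits, DESeq2 1.42.0 on a sample of 200000 windows with the members added, and each pool left out, the last on 400000 windows with the members added. Within a lineage and cell type, pools of different numbers are of different rats by the same methods, and p-values measure the spread between pools.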

Additional observations from a re-analysis of the deposited data

Results flagged for a closer look

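The limits were set for autosomes. On chromosome X, 76 windows were low in the control lineage by the same limits, and 0 were low in the vinclozolin lineage. The 76 were 47.5 per 1000000 windows against 83.5 on the autosomes, both over all windows, with or without reads. On chromosome Y, 1 window was low in the control lineage and 0 in the vinclozolin lineage. These windows are outside the comparisons above, and they are given because they also passed the limits.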

How the results depend on the processing

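The number of member windows depended on every limit. Low in the vinclozolin lineage there were 56, and 31 with no count allowed, 178 with 6 or fewer, 173 with 20 or more and 22 with 40 or more counts in the lineage with reads, 125 after scaling of the pools, 726 in epithelial and 283 in stromal pools alone. Low in the control lineage there were 2186, and under the same settings 27, 22828, 11521, 22, 209, 8739 and 28899. The depth of epithelial and stromal pools differed, and its part in the numbers for each cell type alone was not tested. A further pair of alternatives was chosen after seeing the data. Scaled pools with no count in the low lineage gave 44 and 9 windows, and a ratio under 0.25 over 1100 bp left 41 and 40.

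Leaving out a pool number moved every count by over 1.5 times, in part because fewer counts meet the limits. Low in the vinclozolin lineage, 36, 22 and 29 windows remained in number without control lineage pools 1, 2 and 3, and 308, 437 and 142 without vinclozolin lineage pools 1, 2 and 3. Low in the control lineage the numbers were 14425, 28448 and 25473, and 94, 33 and 280.

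Between control lineage epithelial and stromal cells the count of 0 called members held in all 12 alternatives, the replicate block among them. In the vinclozolin lineage it was 2, also with the replicate block, library sizes alone and the size factors. It was 0 with 40 or more counts, where 22 members were tested, 0 with DESeq2 and 0 with 10 or more counts, and between 0 and 3 with a pool left out. The replicate block lowered the number of all windows called from 144 to 59 in the control and from 4746 to 2490 in the vinclozolin lineage, and left the number of called members at 0 and 2. The depth of a window, at most 38 counts in a pool, limits all comparisons of single windows.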
